A study of Rattus norvegicus with 10 samples.

Results

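The 9 laminin chain genes Lama1, Lama2, Lama4, Lama5, Lamb1, Lamb2, Lamb3, Lamc1 and Lamc3 were followed through all libraries of a study of miR-145 in cultured rat oligodendrocytes. They are the genes of the deposited miR-145 mimic table whose symbol begins with Lama, Lamb or Lamc and a chain number, 9 of the 16129 genes in that table and of the 23487 in the count table. The family was picked because its members were higher with the miR-145 mimic, so the values of that comparison, and of those that share its libraries, are a description, and support is drawn from no test on them. In the tables they carry the Ensembl identifiers ENSRNOG00000017237 (Lama1), ENSRNOG00000011134 (Lama2), ENSRNOG00000000599 (Lama4), ENSRNOG00000053691 (Lama5), ENSRNOG00000005678 (Lamb1), ENSRNOG00000047768 (Lamb2), ENSRNOG00000006025 (Lamb3), ENSRNOG00000002680 (Lamc1) and ENSRNOG00000059507 (Lamc3).

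Messenger RNA was sequenced in 10 libraries, with 2 in each of 5 groups. All cells were primary cells of Sprague-Dawley rats, with no genetic change named in the labels, grown as oligodendrocyte progenitor cells (OPCs) from mixed glial cultures of newborn cortex. In the OPC arm a miR-145 inhibitor, anti-miR-145, or the matching control, anti-miR-ctl, was transfected and RNA was taken 24 h later. Oligodendrocytes (OLs) were transfected with a miR-145 mimic (miR-145), with miR-145 and miR-219 mimics together (miR-145+miR-219) or with a control mimic (miR-ctl), and were collected after 5 days of differentiation. Each oligonucleotide was used at 30 nM. A tag on both miR-145 libraries also names miR-219, but their titles and descriptions do not, and the titles were followed here. The study describes a replicate of primary cells as cultures from an individual mouse, while these cells are from rats. Whether each replicate here came from a separate animal is therefore not known. The p-values measure the spread between replicates as they are labelled. Libraries held 33505706 to 42684206 counts, and levels are CPM, counts scaled to library depth with TMM factors. CPM does not correct for gene length, so levels are compared between groups and not between genes. Mature miR-145 itself is not measured by mRNA sequencing.

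Laminins are secreted proteins built from 1 alpha, 1 beta and 1 gamma chain, and they polymerise into the sheet on which basement membranes form. Cells hold on to them through integrins and dystroglycan. In the nervous system laminins line blood vessels and the pial surface, and the alpha-2 chain is known for its part in oligodendrocyte survival, spreading and myelination. Astrocytes, vascular cells and meningeal fibroblasts are known sources of laminin in brain.

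The mature microRNAs are printed from RefSeq (GRCr8) because they are what the mimics and the inhibitor are named after, with the seed, bases 2 to 8, in capitals. miR-145-5p lies at chr18:57370033-57370055 on the minus strand and miR-219a-5p at chr3:33516561-33516581 on the minus strand. The labels give no arm for miR-219, so the 5p sequence is shown as the reference lists it. The seeds differ.
rno-miR-145-5p: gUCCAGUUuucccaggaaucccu
rno-miR-219a-5p: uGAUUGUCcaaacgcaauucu

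Library identity was checked against marker lists. The summed level of 10 markers of maturing OLs was 16071 to 35269 CPM in OLs and 1108 to 1331 CPM in OPCs, and 5 OPC markers summed to 1221 to 1916 CPM in OLs and 3667 to 4764 CPM in OPCs. Markers of other glia were not absent. The 10 astrocyte markers, led by Gfap, summed to 6948 and 5925 CPM in miR-ctl OLs, 14566 and 9882 CPM in miR-145 OLs and 12113 and 7170 CPM in miR-145+miR-219 OLs, against 476 to 805 CPM in OPCs. Every mimic-treated OL library thus had a higher astrocyte sum than either control. The 10 fibroblast or mural cell markers summed to 40.9 and 31.1 CPM in miR-ctl OLs, 67.4 and 118 CPM with miR-145 and 74.2 and 64.5 CPM with miR-145+miR-219. Replicate 2 of miR-145 stood apart there, with Col3a1 at 29.9 CPM against 3.06 CPM in replicate 1, and it was also the highest OL library for 12 microglia markers, at 1061 CPM against 387 to 687 CPM in the others. In bulk RNA, fewer cells of a type and less RNA per cell cannot be told apart.

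**Figure D1:**
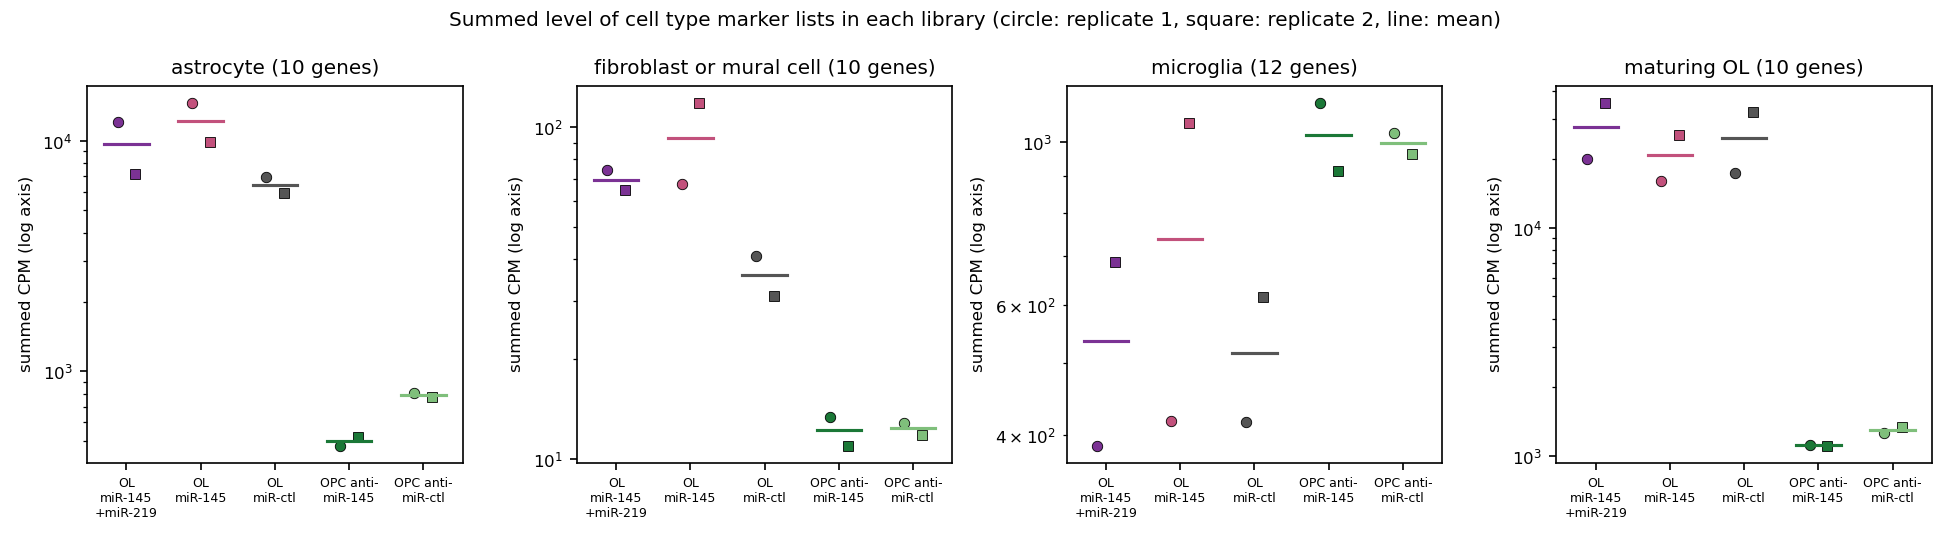
Summed CPM of 4 marker lists on log axes for the 5 groups, with a circle for replicate 1, a square for replicate 2 and a line for the mean. Astrocyte and fibroblast or mural cell sums were higher in all mimic-treated OL libraries than in both miR-ctl OL libraries.

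Between control OPCs and control OLs Lama4 was lower and Lama5, Lamb2 and Lamc3 were higher in OLs, while Lamc1 overlapped. Among alpha chains, Lama4 went from 417 and 396 CPM in anti-miR-ctl OPCs to 79.6 and 47.3 CPM in miR-ctl OLs, while Lama5 went from 5.47 and 4.49 CPM to 40.3 and 29.4 CPM. Lamb2, a beta chain known from synapses and the kidney filter, went from 3.55 and 3.53 CPM to 59.8 and 62.3 CPM. Both OPC libraries thus lay far above both OL libraries for Lama4 and far below them for Lama5 and Lamb2.

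Lamc1, the gamma chain of most laminin trimers, measured 151 and 142 CPM in anti-miR-ctl OPCs and 156 and 131 CPM in miR-ctl OLs, and these overlapped. Lamc3, a gamma chain of nervous tissue and retina, had 1 count in each anti-miR-ctl OPC library and 18 and 13 counts in the miR-ctl OLs. The ratio of its depth-scaled counts, OL to OPC, was 17.0 with an exact 95% interval of 4.32 to 146. This interval pools the libraries of a group and covers counting error only, not the spread between replicates, so nothing is read from it. Lama1, an alpha chain of embryonic basement membranes, was lower in OLs, at 0.352 and 0.307 CPM against 2.15 and 2.52 CPM. Its estimated counts were not whole in any library, so some of its reads may be shared with another sequence and its level is uncertain. By edgeR 57.5% of all genes were called between these control groups.

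These control libraries also enter the comparison that picked the family, so OLs whose libraries did not, those given miR-145+miR-219, were tested against anti-miR-ctl OPCs. They still carry the miR-145 mimic, the treatment on which the family was picked, so the number of chains that rose is not read as a result of stage. Between the control groups the log2 differences were -2.68 for Lama4, 4.10 for Lamb2 and 2.80 for Lama5. This pair was chosen after the data had been seen, and stage, medium, time and oligonucleotide cannot be told apart in it. In edgeR's quasi-likelihood test, adjusted by Benjamini-Hochberg over 15785 genes, 4 of the 9 chains rose and 3 fell, where 28.9% of all genes rose, 28.6% fell and 57.5% were called in all. Lama4 fell by 3.49 on the log2 scale (SE 0.09, adjusted p = 6.13e-05 by edgeR) and Lamb2 rose by 4.62 (SE 0.12, adjusted p = 6.13e-05). Lama5 rose by 3.57 (SE 0.24, adjusted p = 0.000312 by edgeR). Lamc3 was higher, with 65 and 21 counts against 1 and 1, a ratio of 44.8 with a counting interval of 12.02 to 376. Lama1 fell by 2.51 (adjusted p = 0.00185 by edgeR). Lamb3 was lower by 2.98, with 4 and 3 counts against 31 and 28. Lamb3 and Lamc3 reached the count minimum of 5 in 2 libraries only through the group where they were higher. Both are among the chains counted above, but nothing is read from their calls or from the counting interval of Lamc3. Lama2 rose by 1.95 here (adjusted p = 0.0090), but in control OLs against control OPCs its libraries overlapped, at 0.352 and 0.276 CPM against 0.421 and 0.274 CPM, with a log2 difference of -0.15 (SE 0.44), so no rise of Lama2 was seen between the control stages. Lamb1 and Lamc1 did not pass, with log2 differences of 0.77 and 0.10 (SE 0.32 and 0.11, adjusted p = 0.0941 and 0.475 by edgeR). Astrocyte markers rose with the same stage change, 9 of 10 being called higher by edgeR in control OLs against control OPCs (28.8% of all genes), and their part in the chain levels was not tested.

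**Figure D2:**
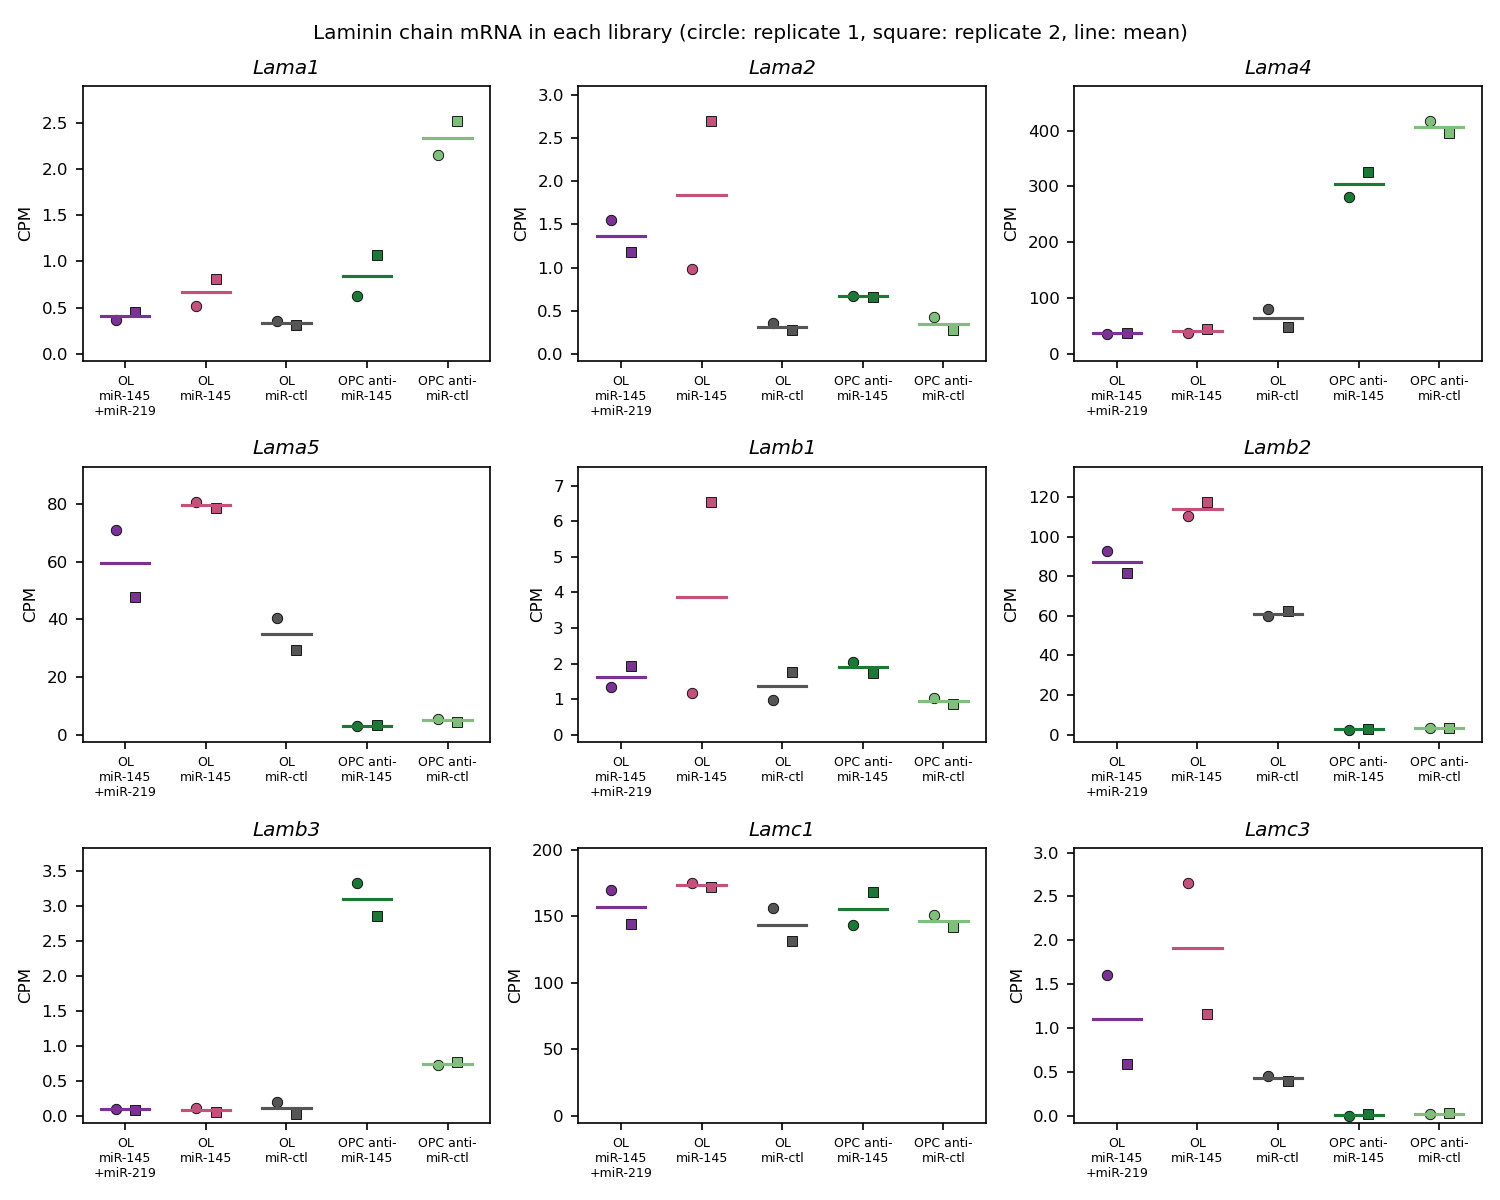
CPM of each laminin chain in the 5 groups on linear axes that include 0, with a circle for replicate 1, a square for replicate 2 and a line for the mean. Lama4 was highest in OPCs, Lama5, Lamb2 and Lamc3 were highest in OLs, and Lamc1 overlapped between control OPCs and control OLs.

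Ratios of chains within a library do not depend on how libraries are scaled. There were 0.0131 and 0.0113 Lama5 counts for each Lama4 count in anti-miR-ctl OPCs and 0.0102 and 0.0107 in anti-miR-145 OPCs. The ratio was 0.506 and 0.623 in miR-ctl OLs, 2.18 and 1.77 with miR-145 and 2.00 and 1.29 with miR-145+miR-219. No OPC library came near any OL library, and all 4 mimic-treated OL libraries lay above both controls. Lamb2 counts per Lamc1 count followed the same order, at 0.0160 to 0.0249 in OPCs, 0.382 and 0.475 in miR-ctl OLs, 0.632 and 0.684 with miR-145 and 0.547 and 0.566 with miR-145+miR-219. The 9 chains together summed to 582 and 551 CPM in anti-miR-ctl OPCs and 338 and 273 CPM in miR-ctl OLs.

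**Figure D3:**
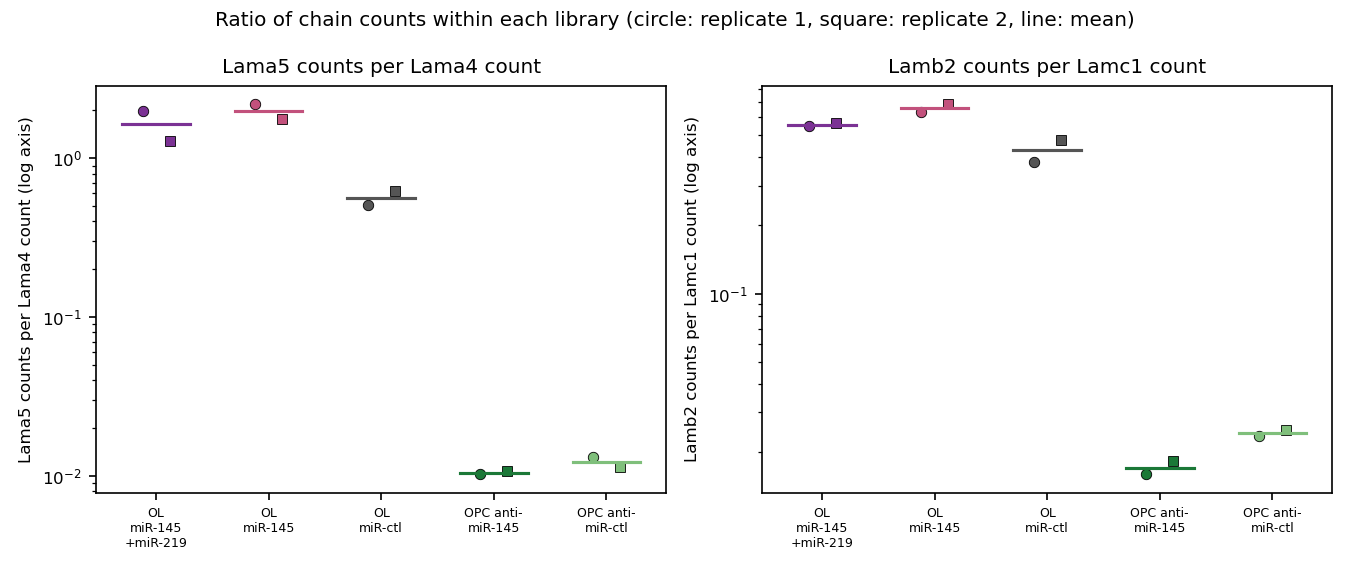
Lama5 counts per Lama4 count and Lamb2 counts per Lamc1 count in each library, on log axes, with a circle for replicate 1, a square for replicate 2 and a line for the mean. Ratios in OPCs were 0.0102 to 0.0131 and 0.0160 to 0.0249, and every OL library lay above these.

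Lama4 and Lama5 moved in opposite directions between the stages, and their promoters are therefore shown, 250 bases before to 50 bases after the start from RefSeq (GRCr8). Of the 9 chains, 8 had an entry. Lama4 lies at chr20:43946648-43946947 on the plus strand with a GC content of 55%, and Lama5 at chr3:187695925-187696224 on the minus strand with 73%, where the median of all promoters was 51.7%. Capitals mark TATAAA and GGGCGG (the GC box), searched on both strands, so that CCGCCC is the same box on the other strand.
Lama4: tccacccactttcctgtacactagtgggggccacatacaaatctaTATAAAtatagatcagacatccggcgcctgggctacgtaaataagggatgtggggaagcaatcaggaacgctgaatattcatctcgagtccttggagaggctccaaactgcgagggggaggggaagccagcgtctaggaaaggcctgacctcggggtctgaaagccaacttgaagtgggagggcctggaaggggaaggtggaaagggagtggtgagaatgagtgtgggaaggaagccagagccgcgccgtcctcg
Lama5: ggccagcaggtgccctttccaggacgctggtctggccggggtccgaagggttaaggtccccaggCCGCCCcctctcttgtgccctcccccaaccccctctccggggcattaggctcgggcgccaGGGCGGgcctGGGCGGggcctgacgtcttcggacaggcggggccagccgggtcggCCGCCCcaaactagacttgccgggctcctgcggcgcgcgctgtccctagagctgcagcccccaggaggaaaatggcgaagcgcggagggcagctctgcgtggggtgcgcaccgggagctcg

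The Lama5 window held 4 GC boxes and no TATAAA, and the Lama4 window held 1 TATAAA, 205 bases before the start by the table, and no GC box. GC boxes were present in 5 of the 8 chain promoters, against 33.1% of all 33469 promoters, and TATAAA in 1 of 8, against 14.2%. No chain promoter held TGANTCA (AP-1), which 7.33% of all promoters held. A match is a description of the letters only.

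With the miR-145 mimic in OLs, 6 of the 8 chains that could be tested were higher in both libraries than in both controls and 1, Lama4, was lower, where 22.9% of all genes were apart and higher and 24.4% apart and lower. The median log2 fold change of the 8 chains was 1.10, and that of all genes -0.01. By edgeR's quasi-likelihood test none of the 8 passed an adjusted p of 0.05, as was so of all 15461 genes (0% called), and 4 of the 8 and 2067 genes had an unadjusted p under 0.05. DESeq2 called 4 of the 8 and 4.20% of all genes. The family was picked on this comparison, so nothing is read from any of these counts.

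Lama5, the alpha chain most widespread in adult basement membranes, measured 80.7 and 78.7 CPM with miR-145 against 40.3 and 29.4 CPM, a log2 difference of 1.20 (SE 0.17). Lamb2 measured 111 and 117 CPM against 59.8 and 62.3 CPM, a log2 difference of 0.91 (SE 0.11). For both genes every miR-145 library lay above every control. Lamc1 differed least, at 175 and 172 CPM against 156 and 131 CPM (0.28, SE 0.13). Lama4, an alpha chain of vessels and peripheral nerve, measured 37.0 and 44.4 CPM against 79.6 and 47.3 CPM, a log2 difference of -0.63 (SE 0.26), with replicate 2 of miR-ctl barely above the miR-145 libraries.

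The chains of few counts varied more between replicates. Lama2, which encodes the alpha-2 chain of merosin, had 34 and 107 counts with miR-145 against 14 and 9 in controls (0.98 and 2.70 CPM against 0.352 and 0.276 CPM), a log2 difference of 2.54 (SE 0.62). Lamc3 had 92 and 46 counts against 18 and 13, a log2 difference of 2.15 (SE 0.52). Lamb1, the beta chain that pairs with alpha-2 in merosin, was at 1.18 and 6.54 CPM against 0.98 and 1.75 CPM, and the groups overlapped. Without replicate 2 of miR-145, the library with high fibroblast and microglia markers, the log2 difference was 1.62 for Lama2, -0.20 for Lamb1, 1.21 for Lama5, 0.86 for Lamb2 and 2.63 for Lamc3. Without replicate 1 of miR-145 it was 1.45 for Lamc3 and 2.28 for Lamb1, against 2.15 and 1.52 with all libraries. Lamb3, a beta chain of epidermal laminin, had 1 to 8 counts in every OL library and was not tested between OL groups. Lama1 measured 0.519 and 0.808 CPM against 0.352 and 0.307 CPM.

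Marker lists of other cells are set beside all genes, of which 22.9% were apart and higher and 24.4% apart and lower. Of 10 astrocyte markers 8 were apart and higher (median log2 difference 0.87), as were all 9 fibroblast or mural cell markers tested (1.34). Of 12 microglia markers 3 were apart and higher, near the share of all genes, but all 12 log2 differences were positive (median 0.71). Their sum was 417 and 1061 CPM with miR-145 against 416 and 616 CPM. Of 10 markers of maturing OLs none was apart and higher and 2 were apart and lower (-0.21). Gfap measured 9708 and 6709 CPM with miR-145 against 4799 and 4179 CPM. Endothelial markers had 3 of 6 apart and higher and 2 apart and lower. Neuron markers had 2 of 5 apart and higher, Schwann cell markers none of 5 apart, and OPC markers 3 of 5 apart and lower. Dcn was at 0 in 2 OL libraries, and no astrocyte marker was at 0 in an OL library. The part of these cells in the chain levels was not tested.

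The miR-145+miR-219 libraries share their controls with miR-145, so the values stand side by side with no test of likeness. Against miR-ctl, 5 of 8 chains were apart and higher (background 17.3%) and Lama4 was apart and lower (19.4%). None of the 8 passed edgeR's quasi-likelihood test, which called 0 of 15436 genes (956 at an unadjusted p under 0.05, and 106 by DESeq2). Lama5 measured 71.0 and 47.8 CPM, a log2 difference to miR-ctl of 0.77 (SE 0.25), and Lamb2 92.9 and 81.6 CPM (0.52, SE 0.11). Both lay between miR-ctl and miR-145. Lama2 measured 1.56 and 1.18 CPM (2.11, SE 0.39), and Lama4 35.5 and 37.1 CPM (-0.80, SE 0.26). Lamc1 measured 170 and 144 CPM and Lamb1 1.33 and 1.94 CPM, and both overlapped their controls. Lama1 measured 0.371 and 0.449 CPM, and Lamc3 had 65 and 21 counts. Against miR-145 alone, all 8 log2 differences were negative, from -1.27 for Lamb1 to -0.15 for Lamc1, and 4 chains were apart and lower (background 11.2%). The family was picked for being high in these miR-145 libraries, so nothing about adding miR-219 is read from these counts. Without replicate 2 of miR-145 the differences of Lamb1 and Lama2 turned positive, at 0.47 and 0.48, and without replicate 1 that of Lamb1 was -2.02. Those 4 were Lama1, Lama5, Lamb2 and Lamc1, and 0 of 15501 genes passed edgeR's test (228 at an unadjusted p under 0.05, and 9 by DESeq2).

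**Figure D4:**
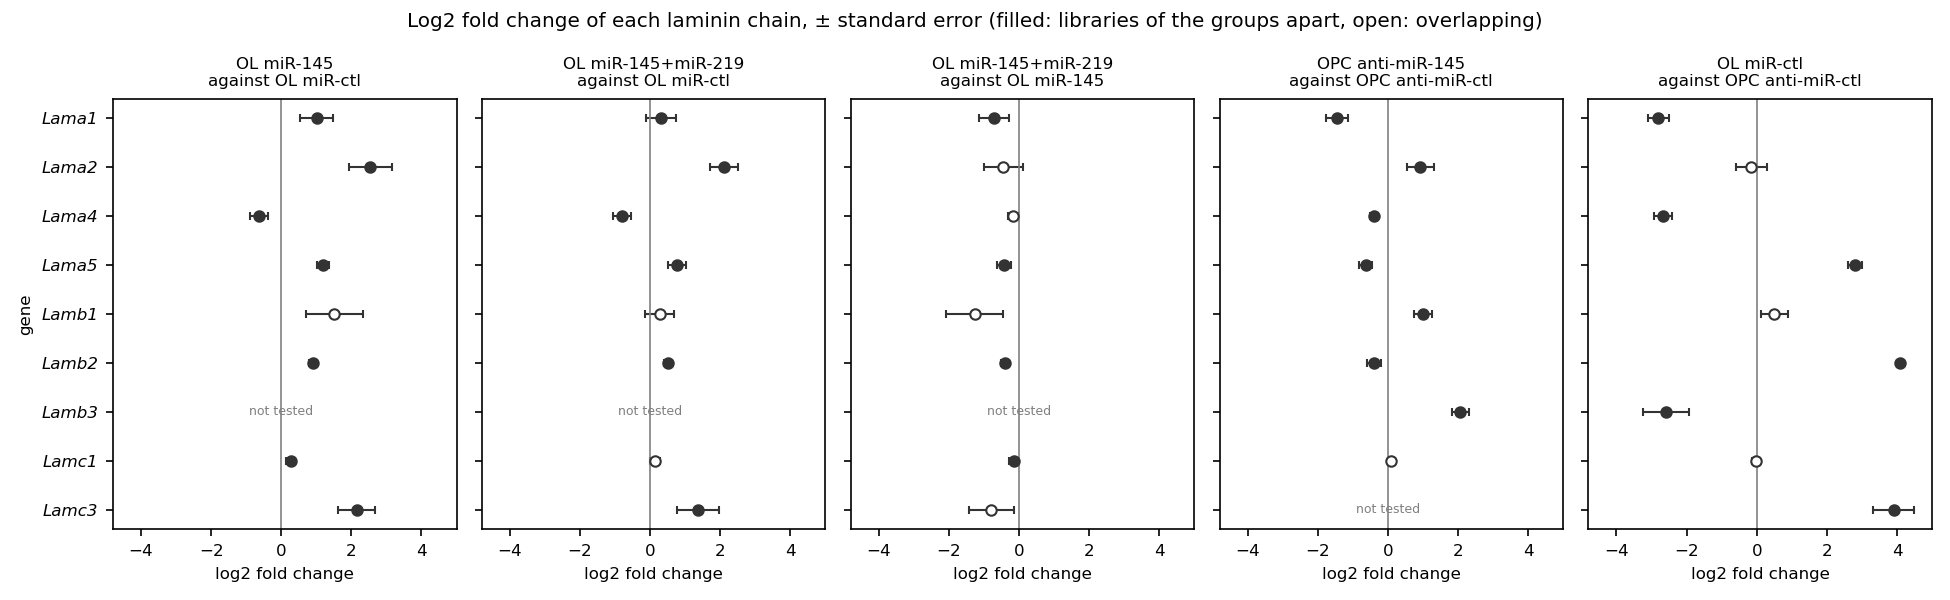
Log2 fold change of each chain with its standard error in 5 comparisons, with filled points where the libraries of the groups were apart and open points where they overlapped. Lama4 was lower and Lama5 higher in both mimic comparisons with miR-ctl, and both were lower in anti-miR-145 OPCs.

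The inhibitor comparison in OPCs used no library of the comparison that picked the family, and there the chains went in both directions. In edgeR's quasi-likelihood test, adjusted by Benjamini-Hochberg, 2 of the 8 chains tested rose (Lamb1 and Lamb3) and 3 fell (Lama1, Lama4 and Lama5), where 12.1% of 15496 genes rose, 16.0% fell and 28.1% were called in all. The median log2 fold change of the 8 was -0.14 and that of all genes 0.00. Lamc3, with 0 and 1 counts against 1 and 1, was below the count minimum.

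Lamb3 measured 3.33 and 2.86 CPM with anti-miR-145 against 0.725 and 0.767 CPM and had the largest change of the chains. Both inhibitor libraries lay well above both controls, with a log2 fold change of 2.06 (SE 0.24, adjusted p = 0.0010 by edgeR). Lama1 measured 0.621 and 1.07 CPM against 2.15 and 2.52 CPM, a fall of 1.45 on the log2 scale (SE 0.31, adjusted p = 0.0139 by edgeR). Lamb1 went from 1.03 and 0.877 CPM to 2.04 and 1.75 CPM, a log2 fold change of 1.00 (SE 0.25, adjusted p = 0.0269 by edgeR).

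Lama4 went from 417 and 396 CPM to 282 and 326 CPM. The groups were apart, and the log2 fold change was -0.41 (SE 0.09, adjusted p = 0.0181 by edgeR). Lama5 fell by 0.63 (SE 0.18, adjusted p = 0.0422 by edgeR), from 5.47 and 4.49 CPM to 2.88 and 3.50 CPM. Lamb2 measured 2.28 and 3.06 CPM against 3.55 and 3.53 CPM (-0.39, SE 0.20) and Lama2 0.670 and 0.658 CPM against 0.421 and 0.274 CPM (0.93, SE 0.37), and neither passed (adjusted p = 0.192 and 0.107 by edgeR). Lamc1 overlapped, at 143 and 169 CPM against 151 and 142 CPM (0.10, SE 0.10, adjusted p = 0.466 by edgeR).

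Only Lama1 and Lamb3 were called when either anti-miR-ctl library was left out or when all 5 groups shared a fit. In those fits Lama4, Lama5 and Lamb1 kept their direction, with adjusted p of 0.0611 to 0.360 by edgeR. Without replicate 1 of anti-miR-145, Lama5 and Lamb1 also missed the threshold (adjusted p = 0.0746 and 0.0527 by edgeR) and Lamc1 passed it (0.0376), and without replicate 2 Lamb2 passed it (0.0488). The shared fit called 15.6% of all genes, and DESeq2 called 3 of the 8 chains, Lama1, Lama4 and Lamb3, and 26.5% of all genes. In the edgeR fit to the 4 OPC libraries, 12.1% of all genes rose and 16.0% fell. In that fit, of 9 astrocyte markers tested 1 rose and 5 fell, and of 12 microglia markers 7 rose and 4 fell. Of 8 fibroblast or mural cell markers 1 rose and 1 fell. Their part in the chain changes was not tested.

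Partners of laminins in the matrix changed in OPCs in both directions. Of 17 basement membrane partners 4 rose and 4 fell, where 12.1% of all genes rose and 16.0% fell. Col4a1, the collagen IV chain of most basement membranes, rose from 144 and 162 CPM to 469 and 480 CPM with anti-miR-145 (log2 fold change 1.65, SE 0.09, adjusted p = 7.9e-05 by edgeR). Col4a3, a collagen IV chain of kidney and lung, fell from 5.26 and 3.10 CPM to 1.34 and 1.29 CPM (-1.65, SE 0.29, adjusted p = 0.00604 by edgeR). The median log2 change of the 17 was -0.02.

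Of 14 laminin receptors 5 rose and 1 fell in OPCs, where 12.1% of all genes rose and 16.0% fell. The median log2 change of the 14 was 0.46. Itga6, the alpha-6 integrin through which oligodendrocytes bind laminin, rose from 33.3 and 32.2 CPM to 102 and 109 CPM (1.70, SE 0.08, adjusted p = 5.6e-05 by edgeR). Itga3, another laminin-binding integrin chain, rose from 1.78 and 2.30 CPM to 10.9 and 9.85 CPM (2.36, SE 0.18, adjusted p = 0.000168 by edgeR). For both genes the inhibitor libraries lay far above the controls. Itga7 and Cd151 were chosen from the 5 that rose after their values were seen, so they do not describe the list as a whole. Itga7, the laminin-binding chain of muscle, rose by 1.12 on the log2 scale (adjusted p = 0.00059 by edgeR). Cd151, a tetraspanin that associates with these integrins, rose by 0.74 (adjusted p = 0.0012 by edgeR). The symbol Cd151 is carried by 2 identifiers, and the one with more counts was used.

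**Figure D5:**
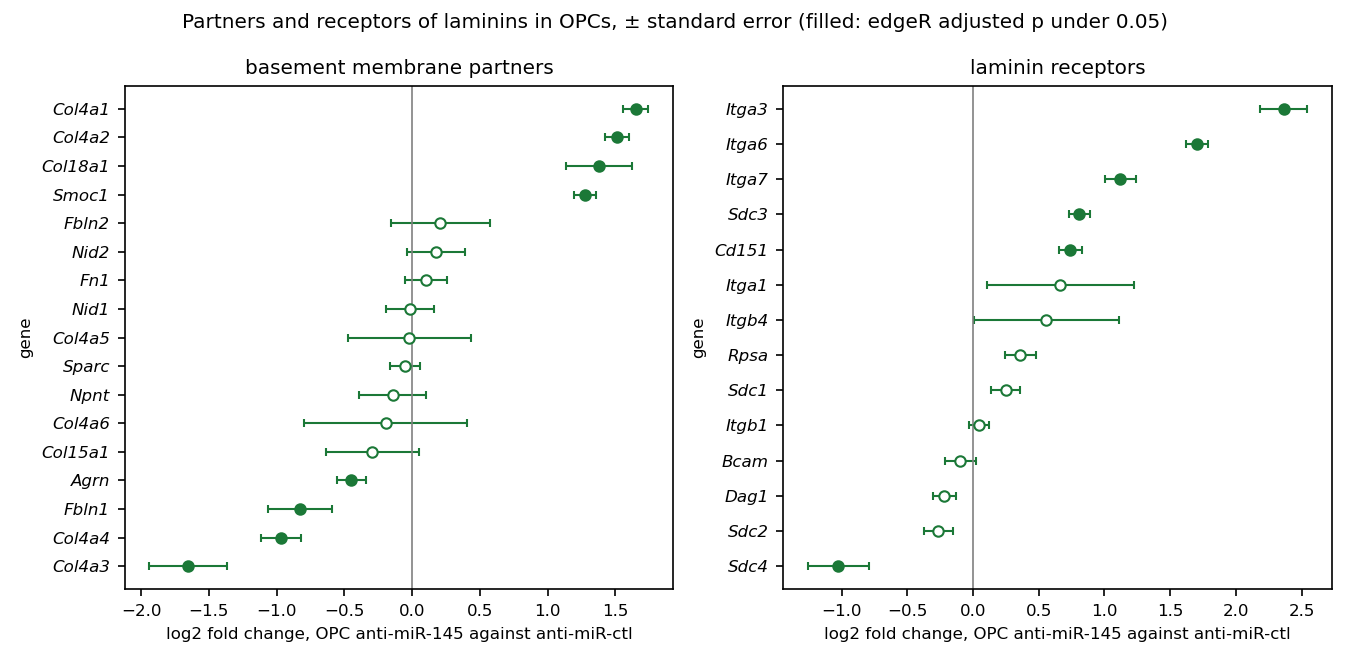
Log2 fold change with its standard error of 17 basement membrane partners and 14 laminin receptors in OPCs with anti-miR-145 against anti-miR-ctl, with filled points for an adjusted p under 0.05 by edgeR. Col4a1 (1.65), Itga3 (2.36) and Itga6 (1.70) lay farthest to the right of the panels, and Col4a3 (-1.65) farthest to the left.

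Enzymes that cut laminin or activate those that do held the largest OPC change of the 6 partner lists. Mmp9, a gelatinase, fell from 15.6 and 14.7 CPM to 0.571 and 0.590 CPM in OPCs (-4.68, SE 0.16, adjusted p = 1.6e-05 by edgeR), while Plau, the urokinase that activates plasminogen, rose by 1.87 (SE 0.18, adjusted p = 0.000459 by edgeR). Of the 7 proteases 3 rose and 2 fell. Of all genes 12.1% rose and 16.0% fell in OPCs, which is also the background of the lists below. In OLs Mmp9 measured 0.0577 and 0.0253 CPM with miR-145 against 1.56 and 0.676 CPM. These miR-145 values lie near the floor, Mmp9 was at 0 in 2 OL libraries, and no gene passed edgeR's test in that comparison. Mmp9 was thus lower in the group named for miR-145 with mimic and with inhibitor, but the OL values are a description only. Dystroglycan glycosylation genes, which build the sugar chain that binds laminin, counted 3 of 13 that rose and none that fell in OPCs, with Pomgnt2 at 0.43 (adjusted p = 0.0318 by edgeR). Signalling genes downstream of laminin receptors counted 3 of 10 that rose and none that fell, but only 5 of the 10 log2 changes were positive (median 0.03). Among those that rose were Fyn, a kinase known to act in myelination, at 0.66 and the adaptor Bcar1 at 0.58 (adjusted p = 0.0011 and 0.00296 by edgeR). In OLs Fyn was lower with miR-145, at 1002 and 908 CPM against 1413 and 1225 CPM, which is a description only. Of 7 genes with laminin domains outside the family 2 rose, the netrins Ntn1 by 0.58 and Ntn4 by 0.44 (adjusted p = 0.0115 and 0.0206 by edgeR). The median log2 change of the 7 was -0.08.

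In OLs with the miR-145 mimic no partner gene passed edgeR's test either, and the lists are described by their libraries. Of 17 basement membrane partners 10 were apart and higher and none apart and lower (median log2 difference 0.76), against 22.9% and 24.4% of all genes. Fn1, fibronectin, measured 19.1 and 78.1 CPM against 14.1 and 9.03 CPM, with the high value again in replicate 2 of miR-145. Col18a1, the source of endostatin, measured 6.46 and 7.80 CPM against 1.99 and 1.41 CPM (2.07, SE 0.28). Of 14 receptors 9 were apart and higher and 2 lower, with Sdc4, a syndecan, at 85.6 and 65.0 CPM against 38.3 and 36.3 CPM, and the hemidesmosome integrin Itgb4 at 14.1 and 25.8 CPM against 9.10 and 11.1 CPM. Of 7 proteases 5 were apart and higher, among them Mmp14, a membrane-bound metalloproteinase, at 178 and 135 CPM against 52.1 and 50.4 CPM. The glycosylation list had 1 of 13 apart and higher and 3 apart and lower, the signalling list 4 and 3 of 10, and the laminin-domain list 3 and 1 of 7, the last led by Megf10 (149 and 141 CPM against 59.4 and 55.8 CPM), an engulfment receptor of astrocytes.

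Across the 10 libraries, Lama5 and Lamb2 had a Pearson correlation of log2 CPM of 0.99, and Lama4 and Lamb2 of -0.97. Over the 6 OL libraries these were 0.94 and -0.66. The values over the 10 libraries share the split into OPCs and OLs, and the 6 OL libraries include those that picked the family, so all are a description. The genes most like Lama4 among 13336 compared were Ing5, Ugdh and Cspg4, the NG2 proteoglycan of OPCs, each with 0.996. Those most like Lamb2 were Tmem47 (0.999), Slc44a2 (0.998) and Cpne8 (0.997), and those most like Lamc1 were Xkr8 (0.946), Mgat5 (0.934) and Atrnl1 (0.930).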

How the data were processed

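Messenger RNA was sequenced by the authors from 10 libraries, stranded and selected for polyadenylated RNA. The authors estimated counts per gene with Salmon 0.12.0 against a rat Rnor6.0 annotation, and deposited these expected counts, of which 16.0 to 17.5% per library were not whole. The deposited tables also hold the authors' own fold changes and p-values, of which none was used. They gave gene symbols for 14561 of 16129 genes.

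Here expected counts were rounded to whole numbers. Comparisons were each fitted to the 4 libraries concerned in edgeR 4.0.16 (R 4.3.3; TMM, quasi-likelihood test), with a count minimum of 5 reached in 2 or more libraries, and p-values were adjusted by Benjamini-Hochberg with a threshold of 0.05. The standard error is the log2 fold change divided by the square root of the F statistic. Alternatives were DESeq2 1.42.0, its size factors in edgeR, other count minimums, all 5 groups in 1 fit, a replicate block and leaving out each library. Methods were tested on simulated data. Members, gene lists and tests were chosen with earlier results of these data known. All chains are named. Of each partner list, the 2 genes with the largest change and a mean of at least 1 CPM in either group are named, and the 3 genes most correlated with the 3 chains of highest CPM. Of the genes so chosen, 1 is not reported here. Of 145 list genes 131 were found. A methods passage of the study names a lentivirus where the labels name mimics, and the labels were followed. Sites for miR-145 in laminin transcripts were not analysed here.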

Additional observations from a re-analysis of the deposited data

How the results depend on the processing

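With 2 libraries a group, calls depended on how the spread was estimated. For miR-145 against miR-ctl in OLs, 0 chains and 0 genes were called by edgeR, 4 chains and 649 genes by DESeq2, 1 and 32 with all 5 groups in 1 fit, and 6 and 2272 with the replicate number as a block. For miR-145+miR-219 against miR-ctl the block called 1 chain and 132 genes, DESeq2 106 genes and the fit with no count minimum 1 gene, all against 0, and for miR-145+miR-219 against miR-145 the block called 184 genes and DESeq2 9. Replicate numbers were shared by the labels, but only 2 pairs exist, and the sources used here do not say that a number stands for the same culture in different groups. Deviations of same-numbered samples correlated at -0.07 to 0.42. In OPCs, 5 chains were called, as with the block, 3 by DESeq2, 2 with all 5 groups in 1 fit (genes called 4348 and 2553) and 2 to 6 leaving out 1 library (genes 2348 to 7133), the 2 without anti-miR-ctl replicate 1 or replicate 2. In control OLs against control OPCs, 6 chains were called and 5 to 6 leaving out 1 library (genes 9042, and 4780 to 10306).

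Leaving out 1 library turned the direction of chains with small or uncertain log2 differences, and the cause was not tested. Lamb1 ranged from -0.20 to 2.28 for miR-145 against miR-ctl, lowest without miR-145 replicate 2. For miR-145+miR-219 against miR-ctl it ranged from -0.0906 to 0.73 and was -0.03 without miR-145+miR-219 replicate 2. For miR-145+miR-219 against miR-145, Lamb1 ranged from -2.02 to 0.47 and Lama2 from -0.999 to 0.48, both highest without miR-145 replicate 2. Lamc1 in OPCs ranged from -0.0034 to 0.20. Between control stages Lama2 ranged from -0.43 to 0.17, with 0.0091 without miR-ctl replicate 2, and Lamc1 from -0.15 to 0.0995. With miR-145+miR-219 OLs in place of the control OLs, a choice made after seeing the data, Lama2 was 1.95 and Lamc1 0.0954. A lone library left in a group was assumed to vary like the other group.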
